A study of Drosophila melanogaster with 37 samples.

Results

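The 7 rhodopsin genes of Drosophila melanogaster, ninaE (the gene of Rh1), Rh2, Rh3, Rh4, Rh5, Rh6 and Rh7, were taken by gene name from the gene tables of the PolyA (mRNA) fraction. They are 7 of the 17559 genes listed. The study dissected isogenic Canton-S adults, aged 24 to 30 hours after eclosion, into heads, bodies and gonads. PolyA libraries were made in 2 replicates of each of 6 groups: female head, male head, female body, male body, ovary and testis. The group called testis held the whole inner male reproductive system, with seminal vesicle, accessory gland and ejaculatory duct. No group carried a mutation or received a treatment. These 12 libraries, of 37 samples in the series, were analysed here, with heads of both sexes set against bodies and gonads.

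Rhodopsins are the light receptors of photoreceptor cells. Each is an opsin, a receptor with a retinal-derived chromophore, and on absorbing light it starts a cascade through a G protein and a phospholipase C that opens TRP and TRPL channels. In the compound eye the outer photoreceptors, R1 to R6, use Rh1 and serve motion vision in dim light. The inner photoreceptors serve colour vision. R7 holds one of the ultraviolet pigments Rh3 and Rh4, and the R8 below it holds Rh5 (blue) or Rh6 (green), with Rh3 paired to Rh5 in pale ommatidia and Rh4 to Rh6 in yellow ones. Rh2 is the violet pigment of the ocelli, the simple eyes on top of the head. Rh7 is known from clock neurons of the central brain.

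The genes lie on 3 chromosome arms of dm6, the genome build of the deposited tables. ninaE (FBgn0002940, 19886255 to 19888206, minus strand), Rh2 (FBgn0003248, 18899423 to 18901019, plus strand), Rh3 (FBgn0003249, 20081060 to 20082450, minus strand) and Rh6 (FBgn0019940, 15483158 to 15484699, plus strand) lie on 3R. Rh4 (FBgn0003250, 16852527 to 16862517, minus strand) and Rh7 (FBgn0036260, 12164205 to 12175482, minus strand) lie on 3L, and Rh5 (FBgn0014019, 12008153 to 12009832, plus strand) lies on 2L. Rh3 has 1 exon and the others have 2 to 5. Rh4 is spread over 9991 bases with 1349 exonic bases, and its intron holds 3 other genes.

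The promoters of 6 members are shown because the members moved together between heads and the other tissues. Sequences are from the RefSeq copy of the same build (Release 6). Each of the long windows covers bases -110 to -21 before the gene's start. Capitals mark matches to RCSI (rhodopsin core sequence I, a palindromic homeodomain element known from Drosophila rhodopsin promoters) and to TATAAA. For Rh5 the start of its second RefSeq mRNA is shown, bases -54 to -25.
ninaE: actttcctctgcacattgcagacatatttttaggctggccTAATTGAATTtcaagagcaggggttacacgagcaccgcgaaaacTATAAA
Rh3: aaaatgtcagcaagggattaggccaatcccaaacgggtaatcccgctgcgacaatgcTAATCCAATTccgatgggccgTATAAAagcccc
Rh4: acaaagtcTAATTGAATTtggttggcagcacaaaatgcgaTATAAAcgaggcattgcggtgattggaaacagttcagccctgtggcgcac
Rh6: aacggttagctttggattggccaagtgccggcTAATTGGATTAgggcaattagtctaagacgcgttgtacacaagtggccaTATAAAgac
Rh5: tctTAATTAGATTctttggcgggcTATAAA
Rh2: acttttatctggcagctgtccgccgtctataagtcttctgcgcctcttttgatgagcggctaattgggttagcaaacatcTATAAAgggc

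The windows are chr3R:19888227-19888316 for ninaE, chr3R:20082471-20082560 for Rh3 and chr3L:16862538-16862627 for Rh4, all read on the minus strand. On the plus strand they are chr3R:15483048-15483137 for Rh6, chr2L:12008324-12008353 for Rh5 and chr3R:18899313-18899402 for Rh2. Both strands of the 250 bases before each gene start were searched. RCSI was found in 4 of 7 members, against 785 of 17453 genes (4.5%). The match began at base -70 in ninaE, -53 in Rh3, -102 in Rh4 and -78 in Rh6. Rh6 holds 3 matches in the 250 bases: the one shown, one on the other strand that is offset by 1 base and shares the capitals, and one at base -240, outside the window shown. TATAAA was found in 5 of 7 members against 41.6% of genes, and RCSI together with TATAAA in 4 of 7 against 2.19%. TAATCC, a letter string of homeodomain factors such as Orthodenticle, was found in Rh3 and Rh6, 2 of 7 members, against 7.76% of genes. One TAATCC of Rh3 lies inside its RCSI match and so does one of Rh6, on the other strand. In the window before the start of Rh5 that the tables give, none of the letters were found. At the second mRNA start of Rh5 RCSI begins at base -51. TAATCC is found there too, beginning at base -61 and, on the other strand, at base -113, both outside the window shown. The counts of members use the starts that the tables give. The window of Rh2 holds TATAAA without a match to RCSI, and that of Rh7 holds neither. RCSI was searched as a fixed pattern of letters, so a variant spelling is missed. The stretch taattgggtt in the window of Rh2 resembles RCSI but does not match that pattern. These are matches of letters, and no binding was measured. Since RCSI is itself known from rhodopsin promoters, its shares among the members, alone or with TATAAA, are a description and no independent test of shared regulation.

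Levels are given as TPM, a measure of transcript abundance that corrects for gene length and for the size of a library. The tables keep no read counts, so the number of reads behind a value is unknown. The authors' coverage column, the mean number of reads over each base, ran from 51.6 to 130471 for the 7 members in heads and from 0 to 262 elsewhere. The libraries differed little in depth, at 9.18 to 12.4 reads per base for 1 FPKM. One mitochondrial transcript, mt:ATPase8, took 39.2 to 57.6% of all TPM in the heads. It was listed at 0 in replicate 2 of both bodies and both gonads, which therefore stand apart. Photoreceptor markers fitted the label of the heads, since 10 of 10 were at 1 TPM or more in each head library and their summed TPM was 389 to 539, against 6.11 to 39.0 elsewhere. The summed ovary markers of the female body were 61.5 and 105.7% of those of the ovary, and the testis markers of the male body 25.2 and 35.9% of those of the testis. In whole tissues, fewer cells of a type and less RNA per cell cannot be told apart.

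Heads of both sexes held far more of every rhodopsin mRNA than bodies and gonads. The levels in heads were spread over 3 orders of magnitude, from ninaE, one of the most abundant mRNAs, down to Rh7. ninaE reached 12507 and 13307 TPM in the female head and 12221 and 13327 TPM in the male head, where it ranked 3 or 4 among all genes of a library. Across the 8 libraries of bodies and gonads it ranged from 10.8 to 23.9 TPM (median 14.5). No head library came near the range of the other tissues.

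Rh3 was the second most abundant member, with 754 and 953 TPM in the female head and 666 and 877 TPM in the male head. Outside heads it was between 0.54 and 1.49 TPM (median 1.07). Rh4 was at 299.9 and 311 TPM in the female head and 355 and 403 TPM in the male head, below Rh3 in each of the 4 libraries. Both ultraviolet pigments of R7 thus stood between ninaE and the opsins of R8.

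Rh6 had 137 and 109 TPM in the female head and 156 and 149.9 TPM in the male head. Rh5 had 107 and 126 TPM in the female head and 112 and 129 TPM in the male head. The ranges of these R8 opsins overlapped over the 4 head libraries, and in replicate 2 of the female head Rh5 was the higher one. Every other neighbouring pair in the order ninaE, Rh3, Rh4, Rh6, Rh5, Rh2 and Rh7 was separated in all 4 heads.

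Rh2, of the ocelli, was found at 49.6 and 79.5 TPM in the female head and 37.3 and 55.6 TPM in the male head. Outside heads it did not exceed 0.36 TPM and was listed at 0 in replicate 2 of the ovary. Rh7 was the lowest, with 4.98 and 8.83 TPM in the female head and 6.63 and 11.1 TPM in the male head. Its highest value elsewhere was 0.51 TPM, in replicate 2 of the male body. The lowest head library stood above the highest other library for all 7 members.

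**Figure D1:**
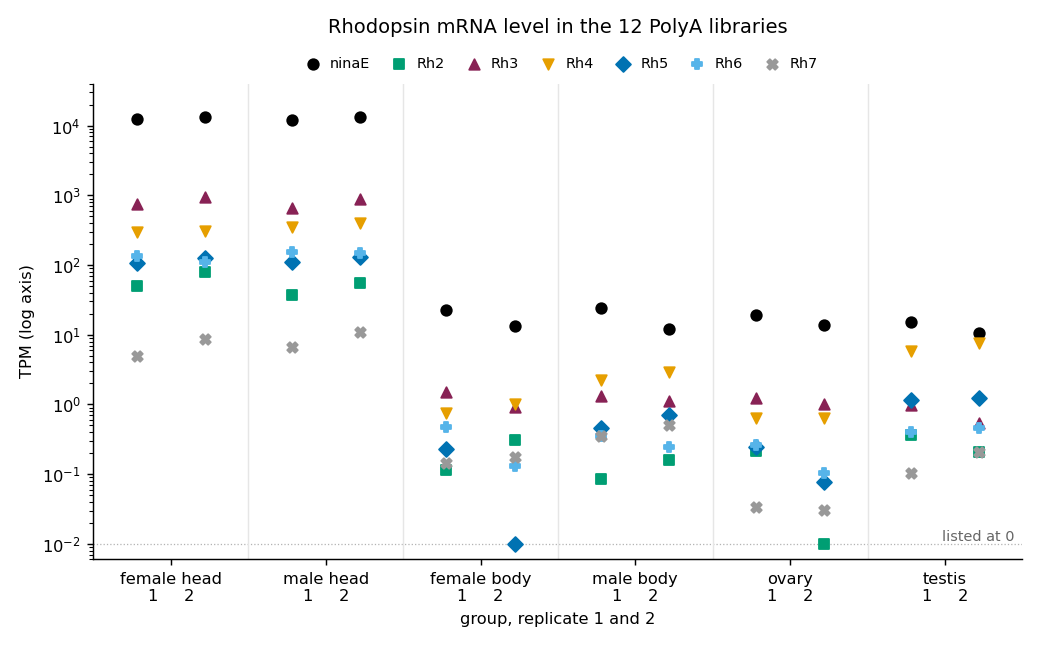
TPM of the 7 rhodopsin genes (colours) in each of the 12 PolyA libraries, on a log axis, with both replicates of a group side by side and values listed at 0 drawn on the dotted line. Each member is highest in the 4 head libraries, where ninaE lies at 12221 TPM or more, and ninaE stays between 10.8 and 23.9 TPM in bodies and gonads.

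The difference was tested with limma on log2(TPM + 1) over 12882 genes, those whose TPM averaged 1 or more, and all members were among them. Rh2, Rh5, Rh6 and Rh7 averaged 0.18, 0.52, 0.30 and 0.20 TPM outside heads and passed this filter through heads. Their calls as higher in heads were thus nearly fixed in advance. On this scale a fold change understates the change of a low gene. All 7 members passed an adjusted p of 0.05 as higher in heads, beside 20.2% of all genes tested. The log2 fold change was 9.58 ± 0.27 (SE) for ninaE, 8.61 ± 0.21 for Rh3 and 6.81 ± 0.20 for Rh4. It was 6.73 ± 0.18 for Rh6, 6.35 ± 0.18 for Rh5, 5.53 ± 0.20 for Rh2 and 2.86 ± 0.17 for Rh7. The largest adjusted p by limma was 4.8e-07, that of Rh7. The members' median was 6.73, and the median of all genes was -0.75. Scaling by the median of ratios moved the latter to -0.34 and TPM without mt:ATPase8 to -0.18. These scalings changed the split of all genes from 2607 higher and 6262 lower in heads to 4207 and 6092, and to 4452 and 5488. Under both, the 7 members were still called higher, and likewise without the 4 libraries in which mt:ATPase8 was at 0.

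An exact permutation test of each member, 4 heads against 8 other libraries, gave a two-sided p of 0.00404, the smallest that 495 arrangements can give. Replicate numbers mark libraries that deviate together, so the difference was also read within each number. For ninaE it was 9.20 in replicate 1 and 9.96 in replicate 2 on the log2 scale, and for Rh7 2.55 and 3.16.

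Within each sex, the head was set against the body and the gonad in separate contrasts, which share the head libraries. All 7 members were higher in the female head than in the female body, as were 11.1% of all genes, with log2 fold changes from 2.72 (Rh7) to 9.46 (ninaE). In males 7 of 7 were higher in the head than in the body, beside 11.7% of all genes, from 2.75 to 9.47. Against the ovary the female head had 7 of 7 higher, beside 19.1% of all genes, from 2.89 to 9.55. Against the testis the male head had 7 of 7 higher, beside 24.7% of all genes. There the range ran from 3.06 for Rh7 to 9.85 for ninaE, and Rh4 had 5.63 ± 0.32, against 7.55 ± 0.32 in the contrast of female head and ovary.

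The test did not separate the heads of the sexes for any rhodopsin. By limma 0 of 7 members differed between them at an adjusted p of 0.05, beside 0.0932% of all genes (12 of 12882). An unadjusted p under 0.05 was reached by 0 of 7, beside 157 of 12882 genes. The log2 difference, female minus male, ran from -0.33 for Rh7 to 0.45 for Rh2. For ninaE it was 0.02, with a 95% interval from -0.97 to 1.00. The interval was -0.27 to 1.17 for Rh2 and -1.03 to 0.42 for Rh4, and both hold a difference of 1 log2 unit. These intervals come from a fit without the pairing of replicate numbers, whose spread is shared over all 6 groups. Within replicate numbers 1 and 2 the difference was 0.03 and -0.002 for ninaE, 0.40 and 0.51 for Rh2 and -0.24 and -0.37 for Rh4. With the replicate number as a block, limma still called 0 of 7 members.

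The make-up of rhodopsin mRNA in heads was compared as a share of the summed TPM of the 7 genes, which does not depend on the scaling of a library. Their sum was 1.36 to 1.495% of all TPM in heads and 0.0015 to 0.0029% elsewhere. ninaE gave 90.2 and 89.3% of the sum in the female head and 90.2 and 89.1% in the male head. Rh3 made up 5.44 and 6.40% in the female head and 4.91 and 5.87% in the male head. Rh4 made up 2.16 and 2.09% in the female head and 2.62 and 2.69% in the male head, and these did not overlap.

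The ratio of Rh4 to Rh3, the alternative pigments of R7, was 0.40 and 0.33 in the female head and 0.53 and 0.46 in the male head. It was lower in the female head in both replicate numbers, by 0.136 and 0.133. The ratio of Rh6 to Rh5, the alternatives of R8, was 1.28 and 0.87 in the female head and 1.39 and 1.16 in the male head. These overlapped over the 4 libraries, yet the ratio was also lower in the female head within both replicate numbers. There the difference, female minus male, was -0.115 and -0.297. Each of the 10 quantities compared kept its sign in both replicate numbers, so this was not particular to Rh4 and Rh3. The 4 opsins of R7 and R8 together amounted to 0.10 to 0.12 of the ninaE level in each head. In 10 such quantities the exact two-sided permutation p was 0.333 or 0.667 (all 0.667 after adjustment). With 2 libraries against 2 it cannot fall below 0.333, so the separation of Rh4, Rh6 and the Rh4 to Rh3 ratio could not pass the test.

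**Figure D2:**
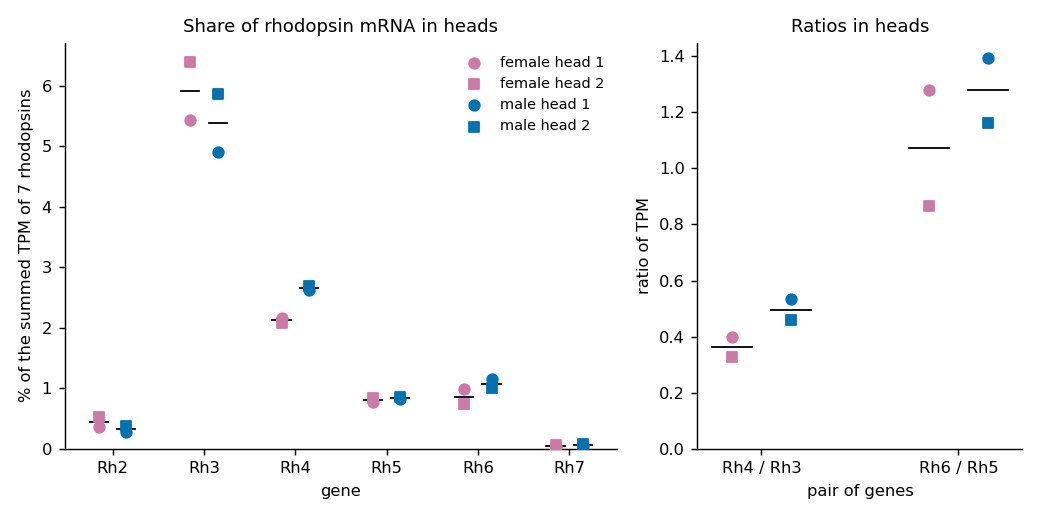
Left, share of each rhodopsin other than ninaE in the summed TPM of the 7 rhodopsins (%), and right, ratio of TPM of the alternative opsins of R7 and R8, in the 2 female and 2 male head libraries (circles replicate 1, squares replicate 2, lines the group means). The Rh4 share and the Rh4 to Rh3 ratio of the male heads lie above those of the female heads, while the Rh6 to Rh5 ratios overlap.

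The residual level outside heads was expressed as a percentage of the head of the same sex and replicate number. It differed among the members. For ninaE it was 0.08 to 0.20% in the 8 libraries and for Rh3 0.06 to 0.20%, and the ranges of bodies and gonads overlapped. Within both replicate numbers the male body was above the testis, at 156 and 111% of its TPM for ninaE and 133 and 212% for Rh3, and limma called neither (adjusted p = 0.57 and 0.50). For Rh6 it was 0.09 to 0.34% and for Rh2 at most 0.97%. For comparison, the summed markers of the male accessory gland, which heads lack, were at 0.05 to 0.17% of the testis level in head libraries. In replicates 1 and 2 they were at 0.40 and 0.06% in the female body and 1.02 and 0.23% in the ovary. These tissues lack the gland too, so this level was not a fixed background. The part that RNA carried between tissues or libraries has in the low rhodopsin levels was not tested.

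**Figure D3:**
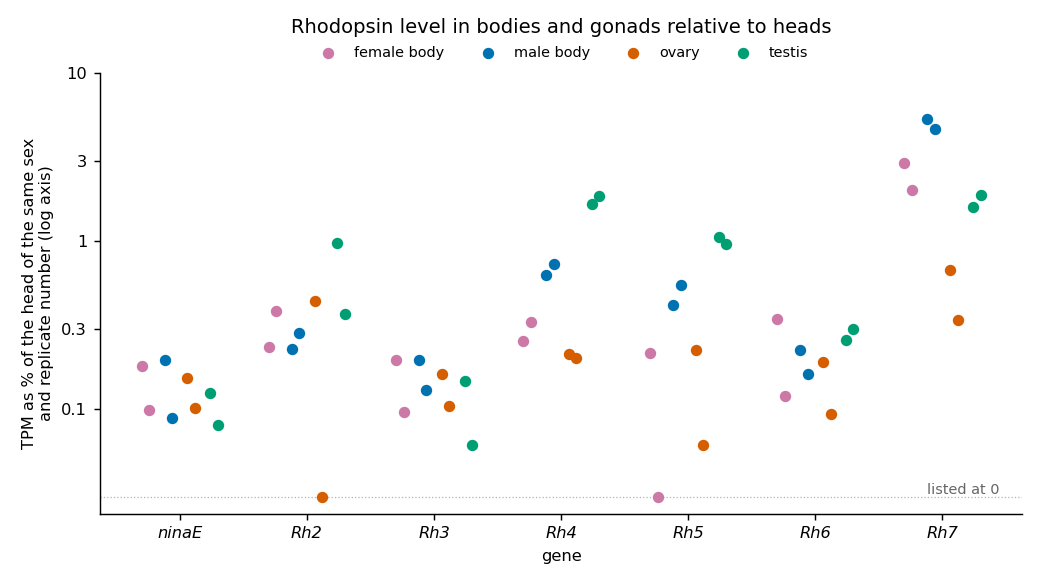
TPM of each rhodopsin in bodies and gonads as a percentage of the head of the same sex and replicate number, on a log axis; each dot is one library and values listed at 0 lie on the dotted line. ninaE and Rh3 stay at or below 0.20% in all 4 tissues, Rh4 and Rh5 are highest in the testis, and Rh7 is highest in the male body.

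Rh7 kept the largest share in both bodies, while its share overlapped that of Rh4 in the testis and that of Rh2 (0.44 and 0%) in the ovary. It was at 5.31 and 4.61% in the male body, 2.92 and 2.02% in the female body and 1.59 and 1.88% in the testis. In the ovary it was at 0.67 and 0.34%, from levels of only 0.033 and 0.030 TPM. Both body libraries of a sex were above both gonad libraries of that sex. Neuron and glia markers, summed, were at 3.03 and 4.01% of the male head in the female body and 4.60 and 8.88% in the male body, against 0.50 to 1.76% in the gonads. Their part in the level of Rh7 was not tested. In limma none of the contrasts among bodies and gonads called Rh7, whose levels there were below the pseudocount of 1. Scaled by the median of ratios, it was called higher in the male than in the female body (adjusted p = 0.027), beside 6486 of 12882 genes.

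Rh4 was, after ninaE, the member with the highest TPM outside heads in the testis and male body. It had 5.90 and 7.50 TPM in the testis, 2.25 and 2.96 TPM in the male body, 0.76 and 1.02 TPM in the female body and 0.64 and 0.63 TPM in the ovary. The testis libraries were at 1.66 and 1.86% of the male head and did not overlap any other group. Rh5 showed the same order in males, with 1.17 and 1.24 TPM in the testis and 0.46 and 0.71 TPM in the male body. It was at 0.24 and 0.08 TPM in the ovary, and at 0.23 and 0 TPM in the female body.

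Between ovary and testis, limma called Rh4 and Rh5 higher in the testis, 2 of 7 members, beside 30.5% of all genes. The log2 fold change, ovary minus testis, was -2.23 ± 0.32 for Rh4 (adjusted p = 0.0002) and -0.93 ± 0.29 for Rh5 (adjusted p = 0.02). Without replicate 2 of the ovary or either testis library, Rh5 had an adjusted p of 0.0915 to 0.103 and was not called. Between male body and testis 1 of 7 members, Rh4, was higher in the testis, by 1.09 ± 0.32 on the log2 scale (adjusted p = 0.025), beside 20.4% of all genes. It was not called without replicate 1 of the male body (adjusted p = 0.0913) or without replicate 1 or 2 of the testis (0.0669 and 0.151). Both calls of Rh4 rest on the same testis libraries.

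Between the bodies, Rh4 was higher in the male body, 1 of 7 members beside 25.1% of all genes, by 0.93 ± 0.32 (adjusted p = 0.043). This call was lost in 11 of the 12 fits that left out 1 library, with adjusted p between 0.0507 and 0.156. Between female body and ovary 0 of 7 members were called by limma, beside 11.6% of all genes in either direction. An unadjusted p under 0.05 was reached by 0 of 7, beside 2132 of 12882 genes. Rh2, Rh5, Rh6 and Rh7 averaged 0.18, 0.52, 0.30 and 0.20 TPM outside heads and passed the filter through heads. The pseudocount of 1 compresses such levels: Rh7 of the female body was 435 and 593% of the ovary, with a log2 change of 0.17. Counts of members in contrasts outside heads, and in comparisons of the fall from the head, thus cannot show that they did not differ.

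The fall from head to gonad was compared between the sexes as a difference of differences. It was larger in females for Rh4, by 1.92 ± 0.46 on the log2 scale (adjusted p = 0.0063), 1 of 7 members beside 48.5% of all genes. With the replicate number as a block in the model, Rh5 was called too, at 0.89 (adjusted p = 0.035, against 0.11 without the block). In that fit 3981 of 12882 genes were called in the same direction and 5040 in the other. The fall from head to body differed between the sexes in 0 of 7 members, beside 32.5% of all genes. An unadjusted p under 0.05 was reached by 0 of 7, beside 5220 of 12882 genes. Under scaling by the median of ratios Rh4 was called in that comparison (adjusted p = 0.017). Of all 12882 genes, 5543 were then called with a positive difference and 1454 with a negative one.

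Among bodies and gonads, 2 of the 3 genes inside Rh4 were high where it was high. Its intron holds sina, a ubiquitin ligase of R7 fate, sinah, a relative of it, and CG13029, all on the opposite strand (3L, 16853751 to 16858712, 16859080 to 16860529 and 16860622 to 16861838). They share 0 exonic bases with Rh4, and the nearest exon end of CG13029 is 43 bases from an exon of Rh4. sinah had 224 and 365 TPM in the testis and 73.1 and 145 TPM in the male body, and at most 3.02 TPM in the other 8 libraries. CG13029 had 38.9 and 58.0 TPM in the testis, 13.4 and 17.5 TPM in the male body and at most 0.56 TPM elsewhere. Both were thus high in the same 4 libraries in which Rh4 was highest outside heads.

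The level of Rh4 in the male body was 38.1 and 39.5% of that in the testis, beside 34.5 and 30.3% for CG13029 and 32.6 and 39.8% for sinah. Rh5, which overlaps no other gene of the tables, was at 39.6 and 57.3%, sina at 40.1 and 48.0% and the summed testis markers at 25.2 and 35.9%, so such a percentage was not particular to the neighbours of Rh4. Rh4 amounted to 12.9 to 16.9% of the CG13029 level in the testis and male body libraries. It was at 176 and 196% of that level in the female body and 138 and 188% in the ovary, where both genes were low. In heads, where Rh4 was at 299.9 TPM or more, CG13029 did not exceed 0.56 TPM and sinah 0.90 TPM. The study's methods name strand-specific libraries for its R- and R+ fractions and not for PolyA, and whether strand was used in counting PolyA reads is not given in the sources used here. Reads of Rh4 and of these opposite-strand neighbours therefore cannot be told apart with certainty, and their part in the testis level of Rh4 was not tested.

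**Figure D4:**
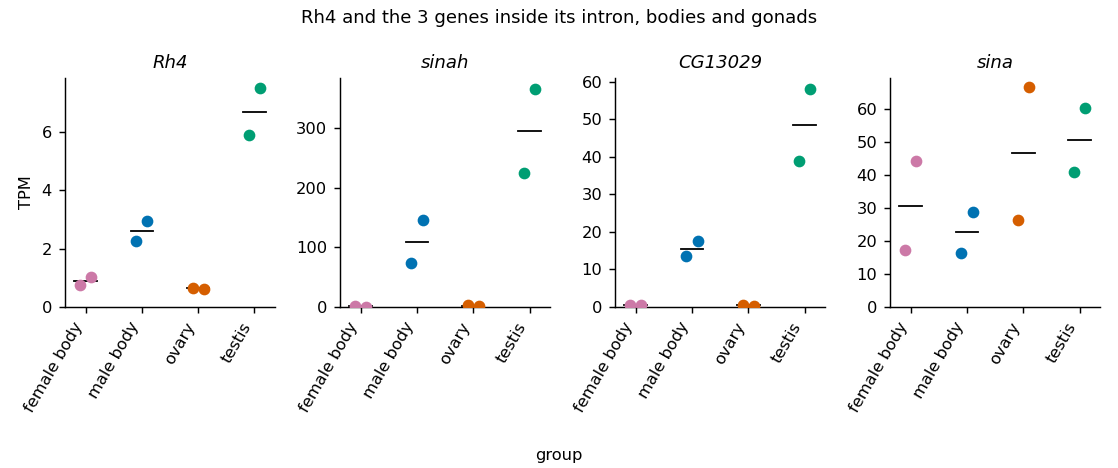
TPM of Rh4 and of the 3 genes inside its intron in the body and gonad libraries, each panel with its own linear axis from 0 (dots, single libraries; lines, group means). Rh4, sinah and CG13029 are highest in the testis and next in the male body, whereas sina is present in all 4 tissues.

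Across the 12 libraries, the members' log2 levels ran nearly in parallel, with Pearson's r between 0.966 (ninaE and Rh4) and 0.9989 (ninaE and Rh3). All points share the contrast of heads and other tissues, so any gene of heads alone reaches a high r. It is given as a description over 12 libraries. For ninaE the most alike of 12875 genes were Arr2, inaD, inaC, Gbeta76C and ninaA, with r between 0.9987 and 0.9996. Rh3 was most like trpl, Gbeta76C, ninaA, inaC and retinin, and Rh6 was most like CG30050, trp, ninaC, inaC and Ilp2.

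Rh4 and Rh5 shared 2 of their 5 closest genes, CG9935 and boss. The closest gene was CR44317 for Rh4, with r of 0.9979, followed by CG9935, CG5375, CG31036 and boss. For Rh5 it was CG9317 (CarT, a carcinine transporter of photoreceptors), followed by CG9935, Pdh, chp and boss. Rh2 was most like Cpr11B, CG7829, CG32726, Cpr49Ag and Cpn. Rh7 was most like sca, CG13408, CG13579, Drl-2 and CG31191. Of the 57 genes in the pathway lists, 5 were among the 5 closest of ninaE, 4 among those of Rh3, 3 among those of Rh6 and 1 among those of Rh5, and 0 among those of Rh2, Rh4 and Rh7.

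The genes that serve rhodopsin were described by 4 lists. A list gene nearly absent outside heads passes the filter on mean TPM only if it is high in heads. Its call as higher was then nearly fixed in advance, so the counts are a description. Supply of the chromophore begins with uptake and cleavage of carotenoids. Of 7 such genes, 5 rose in heads and 0 fell, beside 20.2% and 48.6% of all genes tested. The list's median log2 fold change was 3.41. Pdh, a retinol dehydrogenase of pigment cells, had 2036 ± 88 TPM (SD, n = 4) in heads and 4.85 ± 1.95 TPM (SD, n = 8) elsewhere, with a log2 fold change of 8.52. Its relative rdhB changed by 5.96, ninaB, the enzyme that cleaves and isomerises carotenoids, by 4.95, ninaG, an oxidoreductase of the last step, by 3.41, and santa-maria, a carotenoid uptake receptor, by 2.76. The 2 genes not called, named after their values were seen, were ninaD, the uptake receptor of the gut, at -0.05, and pinta, a retinoid-binding protein, at -0.001. pinta was called higher under the median of ratios (adjusted p = 0.028) and without mt:ATPase8 (0.0068), beside 4207 of 12882 and 4452 of 12881 genes.

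Maturation and turnover of rhodopsin was a mixed list, since 4 of its 9 tested genes rose in heads and 2 fell. Its median was 0.57, and of all genes tested 20.2% rose and 48.6% fell. Xport-A and ninaA, at 0.45 and 0.06 TPM outside heads, passed the filter through heads. Xport-A, a chaperone of Rh1 and TRP, rose by 7.75, from 0.45 ± 0.23 TPM (SD, n = 8) to 308 ± 41 TPM (SD, n = 4). ninaA, the cyclophilin that escorts Rh1, rose by 6.09 and Culd, a membrane protein of photoreceptors, by 4.36. EMC1 and EMC3, subunits of the membrane complex that inserts proteins in the endoplasmic reticulum of all cells, fell by 1.41 and 1.24, where 48.6% of all genes were called lower. They stayed negative under each scaling. Without the 4 libraries with mt:ATPase8 at 0, EMC1 was at -0.83 and not called (adjusted p = 0.0675). Its call was also lost without replicate 1 of the female head or of the male head (adjusted p = 0.0524 and 0.0510).

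Phototransduction was the list that stood nearest to the rhodopsins, with 20 of 22 genes higher and 1 lower in heads. Of all genes tested 20.2% were higher and 48.6% lower. The median of the phototransduction list was 6.40. Several of its genes passed the filter through heads, such as inaD, trp and Gbeta76C, with 0.78, 0.84 and 0.80 TPM outside heads. Arr2, the main arrestin, rose most, by 9.19, with 3067 ± 120 TPM (SD, n = 4) in heads. ninaC (a myosin of the rhabdomere), inaD (the scaffold of the complex), trp (the channel) and Gbeta76C (the eye's G protein beta subunit) rose by 8.18, 8.16, 8.14 and 8.13. The gene that was lower was Pld, phospholipase D, at -1.20 (adjusted p = 0.032), and it was not called on TPM without mt:ATPase8 (-0.66, adjusted p = 0.056). Its call was lost without any 1 of the 4 head libraries and without replicate 2 of either body or of the testis, with adjusted p from 0.0535 to 0.0929. Of the genes of photoreceptor transcription and subtype, 11 of 16 tested rose and 0 fell, beside 20.2% and 48.6% of all genes. This list's median was 2.37, and gl and Pph13, at 0.07 and 0.05 TPM outside heads, passed the filter through heads. Markers of neurons and glia, which heads also hold, rose in 10 of 10 cases with a median of 4.13, and genes such as toy, onecut and pros are known from neurons outside the eye as well. toy, a Pax6 homologue, rose by 5.21, onecut by 4.89 and gl, required for photoreceptor identity, by 4.47. pros, a repressor of R8 opsins in R7, rose by 4.33 and Pph13, a homeodomain activator of rhodopsin genes, by 4.03.

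**Figure D5:**
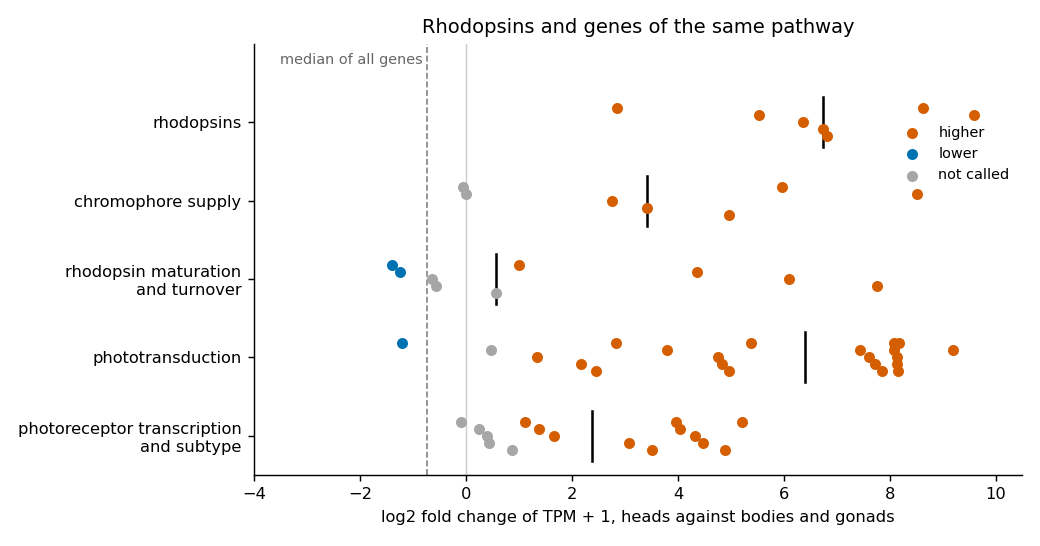
Log2 fold change of TPM + 1 in heads against bodies and gonads for the 7 rhodopsins and the 4 lists, 1 dot per tested gene coloured by its call at an adjusted p of 0.05 (limma); black bars are list medians and the dashed line is the median of all genes, -0.75. The rhodopsins (median 6.73) and phototransduction genes (6.40) lie farthest to the right, and the list of maturation and turnover is spread around 0.57.

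Between female and male heads, 0 of the 54 tested genes of these 4 lists were called by limma, beside 0.0932% of all genes (12 of 12882). An unadjusted p under 0.05 was reached by 0 of the 54, beside 157 of 12882 genes. Few genes passed either threshold, so these counts do not set the lists apart from other genes. The number of libraries, 2 per group, limits what this comparison can show.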

How the data were processed

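PolyA RNA of 6 groups was sequenced in 2 libraries each. Per the submitters' processing notes and the methods, the authors trimmed reads with cutadapt and mapped them with STAR 2.6.1a to dm6 with Ensembl annotation. Cufflinks served to assemble transcripts for the circular RNA analysis, StringTie 2.0 is named in the notes without a role, and which tool made the gene tables is not given in the sources used here. The deposited tables hold TPM, FPKM and coverage computed by the authors for 17559 genes. TPM was the main measure, the authors' FPKM an alternative, and the authors' coverage (a signal) showed depth.

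Gene models came from Ensembl 115, whose ends for the 7 members equal those of the tables. The members, lists and tests were chosen with earlier results of these data known. All 7 members were named. Of each pathway list, up to 5 called genes with the largest absolute change were named, with every gene called in the other direction. The 5 genes most like each member were ranked by Pearson's r of log2(TPM + 1).

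The 12882 genes averaging 1 TPM or more were fitted on log2(TPM + 1) with limma 3.58.1 in R 4.3.3 (lmFit, eBayes with trend), with 6 group means over all 12 libraries. P-values are two-sided and Benjamini-Hochberg adjusted over all genes of a contrast at 0.05. Nothing says that replicates came from separate animals, so p-values measure the spread between these libraries. Exact permutation tests used scipy 1.17.1 with Python 3.11.15, numpy 2.4.6 and pandas 2.3.3, and plots matplotlib 3.10.9. The limma code was tested on simulated data.

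Same-numbered libraries deviated together: the correlation of their deviations from group means was 0.345 to 0.769 (median 0.473) and over 0.1 in 15 of 15 pairs of groups, so the numbers pair the libraries. What they share is not given in the sources used here. Alternatives were a pseudocount of 0.1, all genes with a TPM above 0, a mean TPM of at least 5, FPKM, the median of ratios over 6381 genes, TPM without mt:ATPase8, a replicate block, eBayes without trend and leaving out each library. Leaving out the 4 libraries with mt:ATPase8 at 0 together, and reading values within each replicate number, were added after the data were seen.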

Additional observations from a re-analysis of the deposited data

Results flagged for a closer look

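Rh4 was picked out because the size of its difference between head and gonad was not the same in females and males. Head minus gonad was larger in females by 1.92 ± 0.46 (SE) on the log2 scale (limma, adjusted p = 0.0063), and it ranged from 1.76 to 2.89 over the alternatives, with adjusted p between 0.00016 and 0.030. The direction was the same in both replicate numbers, since Rh4 was lower in the ovary than in the testis by 2.07 and 2.38 on the log2 scale. The opposite-strand genes in the intron of Rh4 were high in the testis as well, and their part in this difference was not tested.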

How the results depend on the processing

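The 7 members were called higher in heads in all 5 contrasts with heads under every alternative, with 6 of 6 where a mean TPM of at least 5 left Rh7 untested. The replicate block raised the calls of the head-gonad difference between the sexes from 1 to 2 members and the lower genes of maturation and turnover from 2 to 4. It changed no other count of members by over 1.5 times. The former count was also 2 with a pseudocount of 0.1 and without mt:ATPase8, and 3 with FPKM and with the median of ratios. Positive and negative calls over all 12882 genes were 3981 and 5040 with the block and 3698 and 2761 with that pseudocount. They were 4115 and 4225 with FPKM, 5638 and 1986 with the median of ratios, and 3860 and 4585 of 12881 without mt:ATPase8. The lower genes of maturation and turnover were also 4 with FPKM, and the lower gene of phototransduction was 0 without mt:ATPase8. Of all 12882 genes, 7417 were lower in heads with the block and 6853 with FPKM. Between the bodies the count of 1 became 2 with a pseudocount of 0.1, 3 with the median of ratios and 0 with a mean TPM of at least 5. Genes called higher in the male body were then 3155 of 12882, 6486 of 12882 and 2317 of 10281. With the median of ratios the count rose to 2 between male body and testis, where 3128 of 12882 genes were called higher and 4569 lower in the male body. It rose from 0 to 1 for the head-body difference between the sexes, beside 5543 positive and 1454 negative calls of 12882. Without the libraries with mt:ATPase8 at 0, each body and gonad group held 1 library. Calls of members among these groups then did not all hold, and a count of them says little about the members. EMC1 and EMC3 were then at -0.83 and -0.91 on the log2 scale in heads against bodies and gonads.

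Each fit that left out 1 library kept 1 library in a group. Some calls of Rh4 and Rh5 outside heads, and of EMC1 and Pld, were lost in such fits, as given above. Calls over all genes shifted too, so a lost call says little about the gene. The log2 difference of Rh4 ran from -1.07 to -0.78 for female minus male body. It ran from -2.38 to -2.08 for ovary minus testis and from -1.24 to -0.94 for male body minus testis. Uncalled differences between female and male heads changed sign, in fits that break the pairing of replicate numbers when a head is left out. Those of ninaE ran from -0.0469 to 0.0781, of Rh3 from -0.0495 to 0.35, of Rh5 from -0.16 to 0.0710 and of Rh7 from -0.68 to 0.0306 on the log2 scale. Within replicate numbers 1 and 2 the differences kept 1 sign for Rh3 (0.18 and 0.12), Rh5 (-0.059 and -0.033) and Rh7 (-0.35 and -0.30). For ninaE they were 0.033 and -0.0022. With all libraries, the difference of Rh5 was 0.10 with FPKM, 0.13 with the median of ratios and 0.0168 without mt:ATPase8. Differences of make-up, female minus male, ran from -0.374 to 0.663 percentage points for ninaE, -0.0703 to 0.00355 for Rh5, -0.413 to 0.00153 for the Rh6 to Rh5 ratio and -0.00875 to 0.00275 for the opsins of R7 and R8 over ninaE. Within both replicate numbers, each of these make-up differences kept its sign. Over all genes, 2607 were higher in heads, against 4207 with the median of ratios and 4452 without mt:ATPase8. The causes were not tested. With 2 libraries per group and no read counts, values under 1 TPM carry the least weight.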
